A study of Mus musculus with 14 samples.

Results

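The classical and non-classical major histocompatibility complex (MHC) class I heavy chains present peptides on the surface of graft and recipient cells, and their mRNA was followed here in transplanted mouse hearts. Of the 6 genes H2-K1, H2-D1, H2-D4, H2-Bl, H2-T23 and H2-M3, 5 had at least 1 probe set of their own on the array, where 8251 genes in all had one. A probe set was taken as a member where the platform annotation, updated to current symbols by gene ID, gave it to 1 of these genes alone. The rule found 11 of 12488 probe sets: 3 for H2-K1, 3 for H2-D1, 2 for H2-D4, 1 for H2-Bl, 2 for H2-M3 and 0 for H2-T23. A further 4 probe sets are annotated to a member together with other genes and were not counted. In all, 14 hearts were measured, each with total RNA on 1 MG-U74Av2 oligonucleotide array. Rejecting hearts were Balb/c hearts in C57/BL6 recipients at day 7 after transplantation (n = 3). Tolerizing hearts had the same donor and recipient strains with antibodies against CD80/86 and were taken at day 7 (n = 3) and at day 70 (n = 3). Isografts were C57/BL6 hearts in C57/BL6 recipients at day 7 (n = 3) and at day 70 (n = 2). No genetic change is named for any group, and the labels do not give the animals' age. Where replicate hearts came from is not stated either, so p-values measure only the spread between these arrays, which may be technical.

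Class I heavy chains pair with the light chain beta-2-microglobulin (B2m). Peptides cut by the proteasome and carried into the endoplasmic reticulum by the Tap1 and Tap2 transporter complete the molecule. CD8 T cells read H2-K1 and H2-D1, which differ strongly between mouse strains and are main targets in the rejection of a graft. H2-T23 encodes Qa-1, which is read mainly by CD94/NKG2 receptors of natural killer (NK) and T cells, and H2-M3 presents peptides with a formylated first residue. H2-D4 and H2-Bl are listed in RefSeq as transcribed pseudogenes. Interferon-gamma raises transcription of class I genes in many cell types. The Balb/c and C57/BL6 strains carry different MHC haplotypes (H-2d and H-2b), so wherever allografts are set against isografts, donor alleles and graft state differ together and cannot be told apart. Rejecting and tolerizing hearts share the donor strain.

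Promoter stretches of 3 members are shown because each had a probe set on which all allografts lay above all isografts. The control region of class I genes is also known for a row of conserved elements. The stretches come from the RefSeq promoter table on build GRCm38.p6, the reference C57BL/6J genome. The table lists 2 promoters for H2-K1, of which the first is shown. Each stretch is 165 bases long, written 5′ to 3′ on the gene's own strand. Capitals mark matches to 4 motifs, searched on both strands without overlap between motifs: a kappaB motif (GGGATTCCC), an interferon regulatory factor type motif (TTTCNNTT), a cAMP response element type motif (TGACG) and the CCAAT box (ATTGG on 1 strand). H2-K1 lies at chr17:34000308-34000472 on the minus strand, H2-D1 at chr17:35262909-35263073 on the plus strand and H2-M3 at chr17:37270098-37270262 on the plus strand.
H2-K1: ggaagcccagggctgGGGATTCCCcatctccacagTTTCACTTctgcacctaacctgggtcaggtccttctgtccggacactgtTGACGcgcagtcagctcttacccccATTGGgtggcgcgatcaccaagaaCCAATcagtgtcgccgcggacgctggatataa
H2-D1: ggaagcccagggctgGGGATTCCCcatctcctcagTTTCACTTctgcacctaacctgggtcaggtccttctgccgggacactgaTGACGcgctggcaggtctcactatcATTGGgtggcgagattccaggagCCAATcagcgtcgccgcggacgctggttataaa
H2-M3: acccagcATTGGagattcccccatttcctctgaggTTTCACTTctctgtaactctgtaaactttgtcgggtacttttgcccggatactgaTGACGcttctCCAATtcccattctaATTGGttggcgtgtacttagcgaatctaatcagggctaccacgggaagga
The H2-K1 and H2-D1 stretches had the same base at 120 of 165 positions without gaps, against 50 of 165 for H2-K1 and H2-M3. Both held all 4 motifs, with the kappaB and interferon-type motifs starting 20 bases apart and the interferon-type and TGACG motifs starting 49 bases apart. The H2-M3 stretch held the interferon-type and TGACG motifs 55 bases apart and no kappaB match. Of 32851 promoters of the table, which reach from 250 bases before the start to 50 after it, 0.353% held the kappaB motif, 23.9% the interferon-type motif, 20.8% the TGACG motif and 37.4% the CCAAT box. All 4 occurred together in 5 promoters, 0.0152% of the table. The H2-T23 promoter held 2 interferon-type matches and 1 CCAAT box. The table had no entry used here for H2-D4 or H2-Bl.

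The deposited signals had a trimmed mean of 100.06 to 100.07 on every array, so arrays were compared as deposited. Signals were raised to a floor of 11 where lower, and 10395 probe sets above it on at least 3 arrays were tested, among them 10 of the 11 members. The arrays fall in 2 runs of consecutive accession numbers, with 5 arrays (1 of each group) in the first and 9 in the second. The 18S control signal was 30.3 to 83.4 in the first run and 120 to 255 in the second. H2-Ea, an MHC class II gene that H-2b mice do not transcribe, had signals of 48.1 to 552 in the 9 allografts and of 2.5 to 12.3 in the 5 isografts, as the strain labels say. Within the day 7 allografts it gave 48.1, 50.4 and 217 in rejecting hearts, against 409, 442 and 552 in tolerizing hearts. By limma it was 5.74-fold lower in rejecting hearts (adjusted p = 0.013). Whether donor and recipient cells contributed alike to rejecting and tolerizing hearts was not tested. All 7 cardiomyocyte markers on the array were above the floor in every group.

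Class I heavy chain signal was higher in allografts than in isografts for most probe sets, whether the allograft was rejecting or tolerizing. For 8 of the 11 probe sets, covering H2-K1, H2-D1, H2-D4 and H2-M3, all 9 allografts had a higher signal than all 5 isografts, which held for 2.77% of all tested probe sets. No member differed past the threshold between rejecting and tolerizing hearts. On the linear scale tolerizing hearts at day 70 had the highest mean signal for all 10 tested probe sets, and isografts at day 70 had the lowest for 9 of them. On the log2 scale H2-D4 101653_f_at was an exception, with a difference of -0.002 between tolerizing hearts at day 70 and at day 7. Most of the probe sets carry the suffix f, which the array's maker gives to probes that also match other members of a gene family, so a value can hold signal from related class I genes. The sources used here do not give which strain's allele each probe set was designed on. These are bulk samples, so fewer cells of a type and less RNA per cell cannot be told apart.

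**Figure D1:**
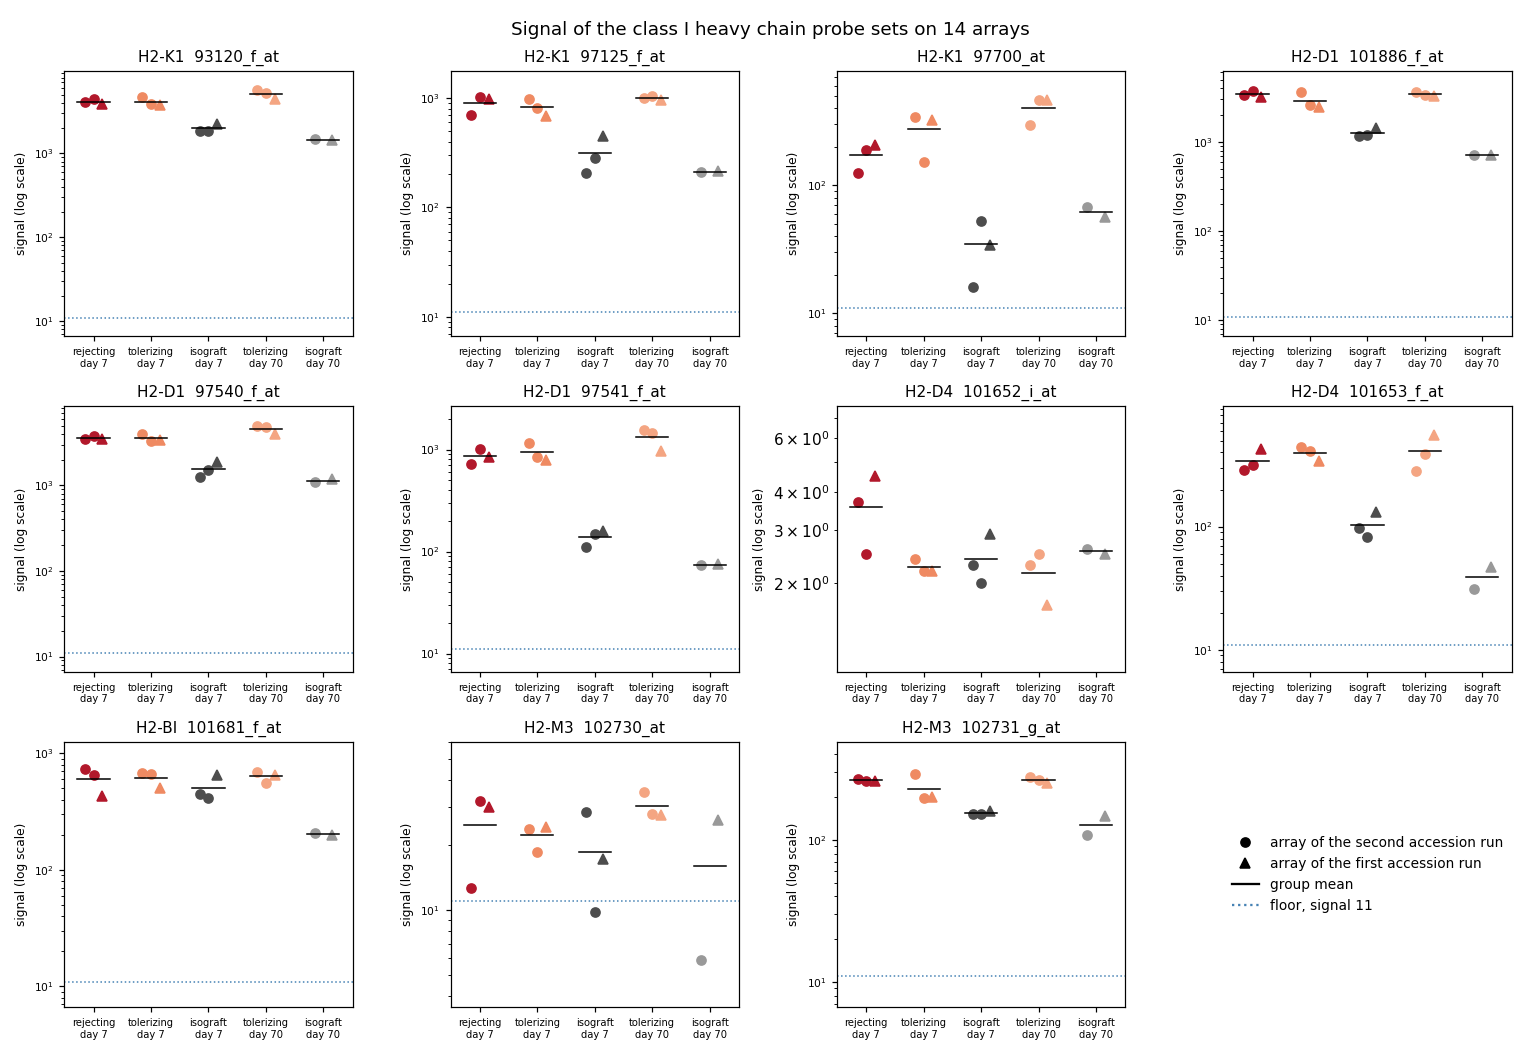
Signal (log scale) of each of the 11 member probe sets on the 14 arrays, grouped by graft type and day. Circles are arrays of the second accession run, triangles of the first, black bars the group means and the dotted line the floor of 11. For 8 probe sets all 9 allografts lie above all 5 isografts, while H2-Bl 101681_f_at and H2-M3 102730_at overlap and H2-D4 101652_i_at stays between 1.7 and 4.5.

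H2-K1, a classical heavy chain read by CD8 T cells, had 3 probe sets. Probe set 93120_f_at gave signals of 4067, 4437 and 3913 in rejecting hearts and 4638, 3902 and 3737 in tolerizing hearts at day 7, against 1868, 1866 and 2263 in isografts at day 7. At day 70 it gave 5671, 5281 and 4496 in tolerizing hearts, against 1495 and 1425 in isografts. The lowest allograft lay well above the highest isograft, and the rejecting and day 7 tolerizing hearts overlapped. The second probe set, 97125_f_at, gave 696, 1029 and 982 in rejecting hearts and 972, 816 and 693 in tolerizing hearts at day 7, against 208, 283 and 450.1 in isografts. At day 70 its signals were 1011, 1046 and 952 in tolerizing hearts, against 211 and 214 in isografts. Its day 7 isografts were spread more widely than its day 70 isografts, but none reached an allograft. The third, 97700_at, is the only H2-K1 probe set without the family suffix. Its signals were 124, 187 and 206 in rejecting hearts and 340.2, 152 and 324 in tolerizing hearts at day 7, against 16.1, 53 and 34.4 in isografts at day 7. At day 70 they were 293, 459 and 460.2 in tolerizing hearts, against 67.7 and 56.9 in isografts. It was the only tested member whose isografts at day 70 all lay above those at day 7.

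At day 7, the 93120_f_at signal was 2.08-fold higher in rejecting hearts than in isografts (95% interval 1.53 to 2.83, limma adjusted p = 0.00356) and 2.05-fold higher in tolerizing hearts than in isografts (1.5 to 2.78, adjusted p = 0.0224). The same comparisons gave 2.98-fold (adjusted p = 0.00105) and 2.75-fold (adjusted p = 0.00812) for 97125_f_at. For 97700_at they gave 5.45-fold (2.97 to 10, adjusted p = 0.0014) and 8.3-fold (4.52 to 15.3, adjusted p = 0.00153). All 3 H2-K1 probe sets thus rose in both kinds of allograft, with the widest intervals for 97700_at.

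H2-D1, a further classical heavy chain read by CD8 T cells, also had 3 probe sets. Probe set 101886_f_at gave 3339.9, 3685 and 3203 in rejecting hearts and 3587, 2598 and 2436 in tolerizing hearts at day 7, against 1160.3, 1189 and 1414 in isografts. The day 70 signals were 3662, 3392 and 3302 in tolerizing hearts, against 717 and 708 in isografts. Both isografts at day 70 lay below the day 7 isografts, which in turn lay below every allograft. Probe set 97540_f_at gave 3466, 3812 and 3470.4 in rejecting hearts and 4017, 3272 and 3435 in tolerizing hearts at day 7, against 1241, 1519.6 and 1860.3 in isografts. At day 70 its signals were 4951, 4833 and 4013 in tolerizing hearts, against 1088 and 1184 in isografts. The allografts of both days overlapped and stood apart from the isografts. Probe set 97541_f_at gave 721, 1008 and 842 in rejecting hearts and 1167, 851 and 793 in tolerizing hearts at day 7, against 110, 147 and 159 in isografts. At day 70 it gave 1563, 1469 and 971 in tolerizing hearts, against 74.4 and 74.7 in isografts. Of all members this probe set had the widest gap between allografts and isografts by fitted fold change at day 70, and its 2 day 70 isografts were almost equal.

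Against isografts at day 7, 97541_f_at was 6.19-fold higher in rejecting hearts (4.43 to 8.66, limma adjusted p = 2.89e-05) and 6.74-fold higher in tolerizing hearts (4.82 to 9.43, adjusted p = 2.94e-05). The other H2-D1 probe sets changed less by the same fit. Probe set 101886_f_at was 2.72-fold higher in rejecting hearts (adjusted p = 0.000458) and 2.27-fold higher in tolerizing hearts (adjusted p = 0.00679), and 97540_f_at was 2.36-fold higher in rejecting hearts (adjusted p = 0.00162) and 2.34-fold higher in tolerizing hearts (adjusted p = 0.00827). All 3 H2-D1 probe sets therefore passed the test in both kinds of allograft. The fold of 97541_f_at was not tested against that of the others, and whether allele or family cross-hybridisation sets the size was not tested.

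The family probe sets annotated to H2-D4 and H2-Bl, the transcribed pseudogenes of the set, differed in their calls at day 7. That of H2-D4 passed the test and that of H2-Bl did not. For H2-D4, 101653_f_at gave 286, 314 and 430.4 in rejecting hearts and 444, 412 and 341 in tolerizing hearts at day 7, against 96.7, 83 and 132 in isografts. The day 70 signals were 285, 391 and 558 in tolerizing hearts, against 30.9 and 47.1 in isografts. Allografts and isografts did not overlap, and the day 70 isografts were the lowest of all. By limma it was 3.32-fold higher in rejecting hearts (2.22 to 4.96, adjusted p = 0.000994) and 3.89-fold higher in tolerizing hearts (2.6 to 5.82, adjusted p = 0.00192) than in isografts at day 7. The other H2-D4 probe set, 101652_i_at, stayed between 1.7 and 4.5 on all 14 arrays, under the floor, and was not tested. The 101653_f_at signal therefore cannot be assigned to H2-D4 itself.

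H2-Bl (101681_f_at) gave 740.4, 653 and 431 in rejecting hearts and 682, 667 and 500.4 in tolerizing hearts at day 7, against 448, 413 and 655 in isografts. At day 70 it gave 687, 560.4 and 659 in tolerizing hearts, against 209 and 198 in isografts. The day 7 groups overlapped, and the 2 day 70 isografts lay apart below all other arrays. At day 7 its log2 difference from isografts was 0.26 for rejecting hearts (95% interval -0.23 to 0.75, limma adjusted p = 0.509) and 0.30 for tolerizing hearts (-0.19 to 0.80, adjusted p = 0.661). The sign differed between the accession runs. Within the first run, with 1 array a group, the log2 difference was -0.60 for rejecting and -0.39 for tolerizing hearts, against 0.69 and 0.65 within the second run, where the rejecting difference had an adjusted p of 0.0302.

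H2-M3, the presenter of formylated peptides, had 2 probe sets. Probe set 102731_g_at gave 270, 259 and 261 in rejecting hearts and 289, 198 and 201 in tolerizing hearts at day 7, against 152, 152 and 159.8 in isografts. The day 70 signals were 276, 265 and 252 in tolerizing hearts, against 108 and 148 in isografts. All allografts lay above all isografts, with the rejecting hearts the tightest of the allograft groups. By limma it was 1.7-fold higher in rejecting hearts than in isografts (1.31 to 2.21, adjusted p = 0.00829). In tolerizing hearts at day 7 it was at 1.46 times the isograft signal (1.12 to 1.89) and did not pass the threshold (adjusted p = 0.174), although the groups did not overlap. Probe set 102730_at was near the floor, at 12.6, 31.9 and 30.1 in rejecting hearts and 23.8, 18.6 and 24.2 in tolerizing hearts at day 7, against 28.4, 9.8 and 17.3 in isografts. It gave 35.4, 28 and 27.6 in tolerizing hearts at day 70, against 5.9 and 26.1 in isografts, and no comparison called it. The lowest isograft of each day lay under the floor.

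H2-T23, the source of Qa-1, had no probe set of its own. The probe set annotated to H2-T23 together with the pseudogene H2-T-ps, 98472_at, gave 239, 285 and 437 in rejecting hearts and 282, 213 and 240.4 in tolerizing hearts at day 7, against 88.4, 82.4 and 131 in isografts. At day 70 it gave 339.7, 329 and 316 in tolerizing hearts, against 69.8 and 96.2 in isografts. As for most members, allografts and isografts did not overlap. By limma it was 3.15-fold higher in rejecting hearts (adjusted p = 0.000689) and 2.47-fold higher in tolerizing hearts (adjusted p = 0.0143) at day 7, and 4-fold higher in tolerizing hearts at day 70 (adjusted p = 0.00108), each against isografts of the same day. These values belong to the pair and are not counted with the members.

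Counted over the whole set, 8 of the 10 tested members were higher in rejecting hearts than in isografts at day 7 and 0 lower in the limma fit, where 8.54% of all tested probe sets were called higher. The members' median log2 difference was 1.34, against 0.04 over all tested probe sets. Every array of the rejecting group lay above every isograft array for 8 members, which held for 15.6% of all tested probe sets. Each of these 8 had the same sign in both accession runs. In tolerizing hearts at day 7, 7 of the 10 members were higher than in isografts and 0 lower, where 0.943% of all tested probe sets were called higher. The median log2 difference was 1.20, against -0.02 over all tested probe sets, and 8 members did not overlap with the isografts, which held for 9.75% of all. The 7 calls depended on the whole fit: 2 members were called with only these groups in the fit, 3 within the second accession run, and 4 without tolerizing day 7 replicate 1. With the 3′ to 5′ ratio of the beta-actin control as a covariate 1 was called, H2-D1 97541_f_at. That ratio, a sign of RNA quality, was 1.09 to 1.37 in tolerizing hearts and 1.52 to 1.98 in isografts at day 7, and its part in the result was not tested further.

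Rejecting and tolerizing hearts at day 7, which share donor strain and day, were not separated by any member. In the limma fit 0 of 10 were called and 0 had an unadjusted p under 0.05. Of all 10395 tested probe sets, 1.41% were called in either direction and 1565 had an unadjusted p under 0.05. The members' log2 differences ran from -0.61 for H2-K1 97700_at (95% interval -1.49 to 0.27) to 0.27 for H2-D1 101886_f_at (-0.16 to 0.69), with a median of 0.01 against 0.06 over all tested probe sets. For H2-K1 93120_f_at the interval was -0.42 to 0.47 and for H2-D1 97540_f_at -0.45 to 0.46, with 1.38-fold as the upper end of each. For H2-M3 102730_at, near the floor, the interval was -0.87 to 0.99. Differences within these intervals remain possible, with 3 arrays a group.

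**Figure D2:**
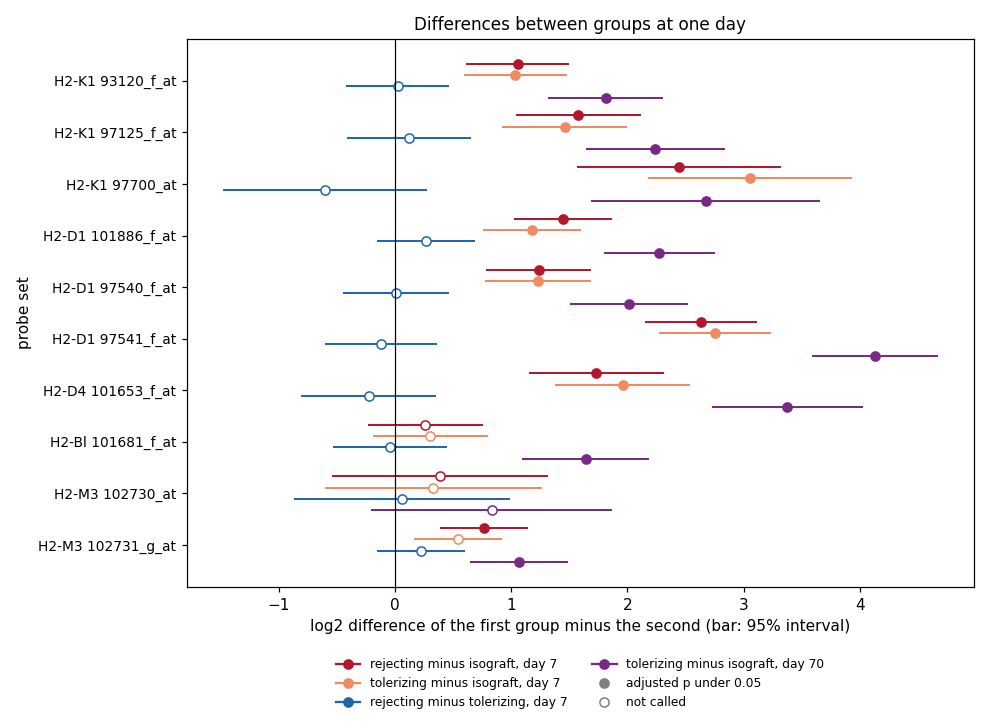
Log2 difference (first group minus second) of each tested member probe set for 4 comparisons at day 7 or day 70, with 95% intervals as bars. Filled points passed a limma adjusted p under 0.05. The rejecting minus tolerizing points lie between -0.61 and 0.27 with no call, while the tolerizing minus isograft points of day 70 reach 4.13 for H2-D1 97541_f_at.

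At day 70 the gap between tolerizing hearts and isografts covered nearly the whole set. In the limma fit 9 of the 10 tested members were higher in tolerizing hearts and 0 lower, where 2.35% of all tested probe sets were called higher. H2-D1 97541_f_at was 17.5-fold higher (12 to 25.5, adjusted p = 1.42e-06), the other H2-D1 probe sets 4.84-fold (101886_f_at, adjusted p = 7.22e-05) and 4.04-fold (97540_f_at, adjusted p = 0.00035). H2-D4 101653_f_at was 10.4-fold higher (6.62 to 16.3, adjusted p = 4.89e-05). Thus H2-D1 97541_f_at and the family probe set annotated to H2-D4 had the widest gaps of the set. The H2-K1 probe sets were 3.51-fold (93120_f_at, adjusted p = 0.000692), 4.72-fold (97125_f_at, adjusted p = 0.000547) and 6.38-fold higher (97700_at, adjusted p = 0.00519). H2-Bl was 3.11-fold higher (2.13 to 4.56, adjusted p = 0.00297) and H2-M3 102731_g_at 2.1-fold higher (1.56 to 2.81, adjusted p = 0.00847). The remaining member, H2-M3 102730_at, had a log2 difference of 0.83 (-0.21 to 1.87, adjusted p = 0.453). The median log2 difference of the members was 2.13, against -0.09 over all tested probe sets. For all 10 members the tolerizing arrays lay above both isograft arrays, which held for 12.6% of all tested probe sets. With only these 2 groups in the fit 4 members were called, and within the second accession run 7. The beta-actin ratio was 1.24 to 1.69 in tolerizing hearts and 1.75 to 1.76 in isografts at day 70, and its part was not tested further.

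Between the days, no member passed the test in either kind of graft, although most isograft signals were lower at day 70. In tolerizing hearts, 0 of 10 members were called between day 70 and day 7 in the limma fit and 1 had an unadjusted p under 0.05, where 0.0385% of all tested probe sets were called. That member was H2-D1 97541_f_at, with a log2 difference of 0.50 (95% interval 0.02 to 0.98, adjusted p = 0.792). The median over members was 0.31, against -0.04 over all tested probe sets. In this comparison 645 of all 10395 tested probe sets had an unadjusted p under 0.05. In isografts, 0 of 10 members were called in the limma fit, where 0% of all tested probe sets were called, and 5 had an unadjusted p under 0.05. Here 559 of all 10395 tested probe sets reached that unadjusted level. At day 70, 7 of the 10 members lay below every day 7 isograft, which held for 10% of all tested probe sets. The log2 difference was -1.42 for H2-D4 101653_f_at (-2.07 to -0.77, adjusted p = 0.394), -1.28 for H2-Bl (-1.83 to -0.73, adjusted p = 0.365) and -0.88 for H2-D1 97541_f_at (-1.42 to -0.34, adjusted p = 0.739). H2-K1 97700_at ran the other way, at 1.01 (0.03 to 1.99, adjusted p = 0.906). The median over members was -0.47, against 0.02 over all tested probe sets. Macrophage markers moved the same way, with a median log2 difference of -0.91, 0 of 8 called and 5 of 8 at an unadjusted p under 0.05. Fibroblast markers (median -0.77, 2 of 6 at an unadjusted p under 0.05) and leukocyte markers (-0.64, 2 of 8) were lower too, with 0 called. The medians were -0.20 for T cell and NK cell markers, -0.01 for endothelial, 0 for B cell and 0.05 for cardiomyocyte markers. The part of these cell types in the member signals was not tested. There were 2 isografts at day 70, 1 in each accession run, which limits this comparison.

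Whether the gap between tolerizing hearts and isografts itself differed between the days was tested as an interaction. In the limma fit 0 of 10 members were called, where 0% of all tested probe sets were called, and 6 members had an unadjusted p under 0.05. That unadjusted level was reached by 409 of all 10395 tested probe sets. The log2 interaction, day 70 minus day 7, was 1.42 for H2-D4 101653_f_at (0.55 to 2.29, adjusted p = 0.733), 1.38 for H2-D1 97541_f_at (0.65 to 2.11, adjusted p = 0.651) and 1.34 for H2-Bl (0.60 to 2.07, adjusted p = 0.659). It was -0.38 for H2-K1 97700_at (-1.70 to 0.94). The wider gap at day 70 is therefore a description of these arrays and did not pass the test.

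**Figure D3:**
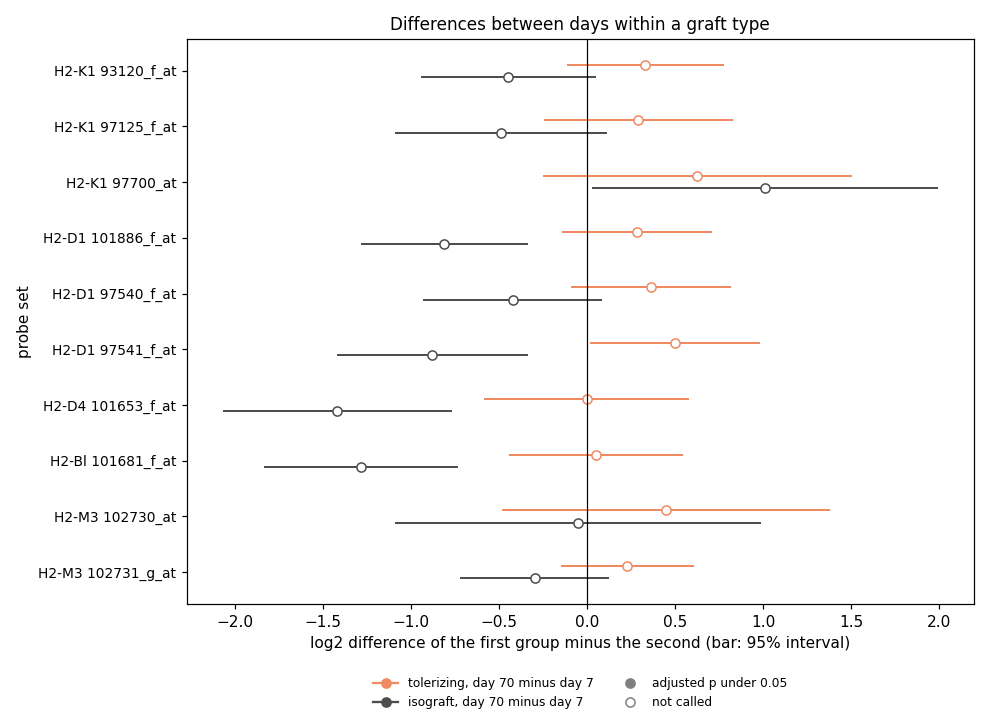
Log2 difference between day 70 and day 7 of each tested member probe set, in tolerizing hearts (orange) and isografts (grey), with 95% intervals as bars. Open points did not pass a limma adjusted p under 0.05. The isograft points of H2-D4 101653_f_at and H2-Bl 101681_f_at lie lowest, at -1.42 and -1.28, and the tolerizing points lie between -0.002 and 0.63.

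Genes that supply and load class I molecules were called higher in the same comparisons as the heavy chains. Of 15 genes of the light chain, transporter, loading complex and immunoproteasome, 12 were on the array and 11 were tested. Of these, 7 were higher in rejecting hearts than in isografts at day 7, 6 in tolerizing hearts at day 7 and 8 in tolerizing hearts at day 70, with 0 lower in each. Over all tested probe sets 8.54%, 0.943% and 2.35% were called higher in these comparisons, in the order given. The light chain B2m gave 3014, 3426 and 3001 in rejecting hearts and 3198, 2999 and 3202 in tolerizing hearts at day 7, against 2147, 1539.5 and 2807 in isografts. The day 70 signals were 3518, 3504 and 3206 in tolerizing hearts, against 1562 and 1464 in isografts. All allografts lay above all isografts for this gene too, although 1 isograft came close. Its log2 difference from isografts was 0.58 for rejecting hearts (limma adjusted p = 0.0974) and 0.58 for tolerizing hearts (adjusted p = 0.281) at day 7. At day 70 it was 2.25-fold higher in tolerizing hearts (adjusted p = 0.021).

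Among the loading genes, the transporter subunit Tap1 averaged 691 ± 248 in rejecting hearts and 577 ± 136 in tolerizing hearts, against 146 ± 38.3 in isografts at day 7 (SD, n = 3 each). The immunoproteasome subunit Psmb8 averaged 1319 ± 433 in rejecting hearts and 1175 ± 241 in tolerizing hearts, against 269.9 ± 65 in isografts. In the limma fit Tap1 was 4.64-fold higher in rejecting hearts (adjusted p = 0.000314) and 3.96-fold higher in tolerizing hearts (adjusted p = 0.00246). Psmb8 was 4.8-fold higher in rejecting hearts (adjusted p = 0.000115) and 4.38-fold higher in tolerizing hearts (adjusted p = 0.000698). The immunoproteasome subunit Psmb9 was 5.43-fold higher in rejecting hearts (adjusted p = 0.000299), 6.42-fold in tolerizing hearts at day 7 (adjusted p = 0.000588) and 10.2-fold in tolerizing hearts at day 70 (adjusted p = 0.000121). As for the heavy chains, 0 of the 11 loading genes were called by limma between rejecting and tolerizing hearts, and 0 had an unadjusted p under 0.05. Over all 10395 tested probe sets 1.41% were called there in either direction, and 1565 had an unadjusted p under 0.05.

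**Figure D4:**
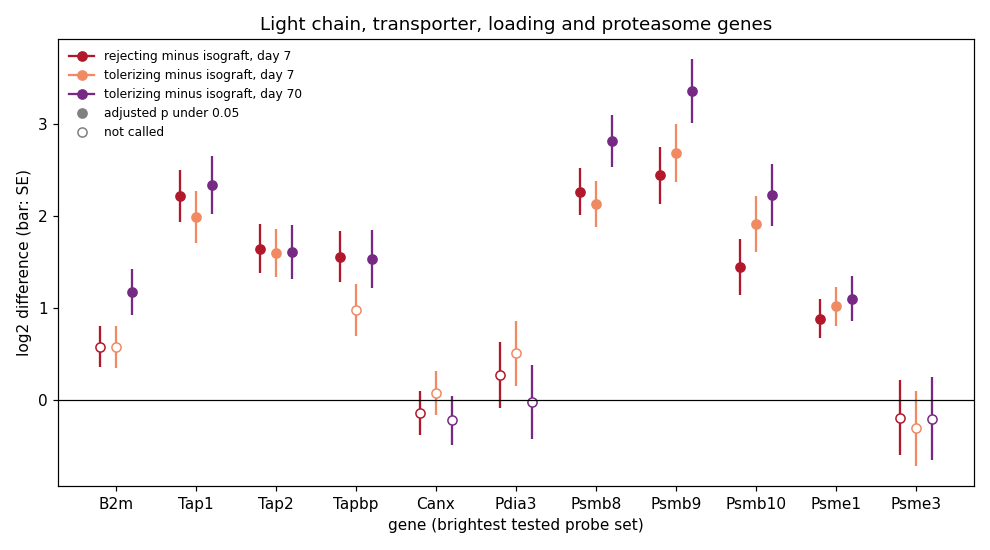
Log2 difference from isografts of the same day for the 11 tested genes of the light chain, transporter, loading complex and proteasome, with standard errors as bars. Filled points passed a limma adjusted p under 0.05. Tap1, Tap2, Psmb8, Psmb9, Psmb10 and Psme1 are filled in all 3 comparisons, and B2m is filled at day 70 only; Canx, Pdia3 and Psme3 are open throughout.

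Some regulators of class I transcription were called. Of 18 tested of 25 listed, 5 were higher and 2 lower in rejecting hearts than in isografts at day 7, and 2 were higher in tolerizing hearts at each day. Over all tested probe sets the shares were 17.7% in either direction for rejecting hearts, and 0.943% and 2.35% higher for tolerizing hearts. Irf1, an interferon-induced activator that binds interferon-type motifs such as those shown above, averaged 797 ± 269 in rejecting hearts and 669 ± 113 in tolerizing hearts, against 207 ± 61 in isografts (SD, n = 3 each). It was 3.79-fold higher in rejecting hearts (limma adjusted p = 0.000436), 3.29-fold in tolerizing hearts at day 7 (adjusted p = 0.00324) and 3.74-fold in tolerizing hearts at day 70 (adjusted p = 0.00249). Irf8, a factor of myeloid and B cells, was also called in all 3 comparisons, at 4.09-fold in rejecting hearts, 3.07-fold in tolerizing hearts at day 7 and 3.97-fold in tolerizing hearts at day 70. Interferon-gamma itself (Ifng) averaged 54.9 ± 49.8 in rejecting hearts and 8.3 ± 5.72 in tolerizing hearts at day 7, against 1 ± 0.656 in isografts. It was above the floor in all 3 rejecting hearts, in 1 of 3 tolerizing hearts and in 0 of 3 isografts. On the floored scale, where all isografts were at the floor, its log2 difference between rejecting hearts and isografts was 1.91 ± 0.46 (SE, limma adjusted p = 0.0112). Between rejecting and tolerizing hearts that difference was 1.78 (adjusted p = 0.0803). Ifngr2, a subunit of the interferon-gamma receptor, was 2.52-fold lower in rejecting hearts (adjusted p = 0.00381).

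Other class I genes were mostly not called. Of 13 tested of 22 listed, 2 were higher and 1 lower in rejecting hearts than in isografts at day 7, with a median log2 difference of 0.19. Over all tested probe sets 17.7% were called in either direction in that comparison and 8.54% higher. H2-Q4, a non-classical gene of the Q region on an f probe set, was 2.48-fold higher in rejecting hearts (limma adjusted p = 0.00252), 2.14-fold in tolerizing hearts at day 7 (adjusted p = 0.0359) and 4.76-fold in tolerizing hearts at day 70 (adjusted p = 0.000414). Cd1d1, which presents lipids, was called in rejecting hearts against isografts (log2 1.81, adjusted p = 0.00484) and against tolerizing hearts (log2 1.74, adjusted p = 0.038). Hfe, a class I-like protein of iron uptake, was lower in rejecting hearts than in isografts, at a log2 of -0.85 (adjusted p = 0.0195).

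Some listed receptors that read class I were called in both kinds of allograft, in tolerizing hearts only chains of the CD8 coreceptor. Of 14 tested of 25 listed, 8 were higher in rejecting hearts than in isografts at day 7, 2 in tolerizing hearts at day 7 and 1 in tolerizing hearts at day 70, where 8.54%, 0.943% and 2.35% of all tested probe sets were called higher. All 14 had a positive difference in tolerizing hearts at day 7, and 13 in rejecting hearts. The calls in tolerizing hearts were Cd8a and Cd8b1 at day 7 and Cd8b1 at day 70. The list also holds chains of the T cell receptor complex, which serve as T cell markers here too. Cd3g and Cd3d were among the calls in rejecting hearts. No tested Klra gene of the list was called in any of these comparisons. Of the 14, 1 was higher in rejecting than in tolerizing hearts, where 1.41% of all tested probe sets were called in either direction. Cd8a, a chain of the coreceptor that binds class I, had a log2 difference of 3.96 in rejecting hearts (limma adjusted p = 0.000663) and of 2.87 in tolerizing hearts (adjusted p = 0.0224) against isografts at day 7. Klrd1, the CD94 chain that reads Qa-1, was at 3.22 in rejecting hearts (adjusted p = 0.00133). Its log2 difference was 2.14 in tolerizing hearts at day 7 (adjusted p = 0.0705) and 2.10 at day 70 (adjusted p = 0.0783), which did not pass. Pirb, an inhibitory receptor of myeloid and B cells for class I, was higher in rejecting hearts by 2.13 against isografts (adjusted p = 0.000162) and by 1.38 against tolerizing hearts (adjusted p = 0.0169).

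Markers of cells that enter a graft were called in part of these comparisons. All 8 leukocyte markers were higher in rejecting hearts than in isografts at day 7, 2 in tolerizing hearts at day 7 and 6 in tolerizing hearts at day 70. Over all tested probe sets 8.54%, 0.943% and 2.35% were called higher in these comparisons, and 17.7% in either direction in the first. An unadjusted limma p under 0.05 was reached by 3034, 1348 and 1603 of the 10395, in the same order. The summed signal of the leukocyte markers was 5480 to 8959 in rejecting hearts and 3379 to 5973 in tolerizing hearts, against 1784 to 2040 in isografts at day 7. At day 70 it was 3629 to 6174 in tolerizing hearts, against 899.9 to 1528 in isografts. The leukocyte sums of all allografts thus lay above those of all isografts, and the brightest markers weigh most in such a sum. T cell markers summed to 603 to 2291 in rejecting hearts and 384 to 774 in tolerizing hearts, against 122 to 413 in isografts at day 7, where Cd2 and Cd5 were at the floor. Of these 8, 6 were called higher in rejecting hearts, 1 in tolerizing hearts at day 7 and 0 at day 70, with 5 at an unadjusted p under 0.05 at day 70. Of the 8 macrophage markers 5 were called higher in rejecting hearts, 0 in tolerizing hearts at day 7 (3 at an unadjusted p under 0.05) and 4 at day 70. They summed to 6934 to 9610.3 in rejecting hearts and 5124 to 7352 in tolerizing hearts, against 3545 to 4338 in isografts at day 7. At day 70 they summed to 5096 to 7695 in tolerizing hearts, against 1086 to 2559 in isografts. All 7 cardiomyocyte markers were lower in rejecting hearts than in isografts, with sums of 3538 to 18329 against 29422 to 44186, while 0 of 7 were called by limma in tolerizing hearts at either day, with 0 at an unadjusted p under 0.05. Between rejecting and tolerizing hearts, where the class I median was 0.01, the cardiomyocyte markers had a median log2 difference of -2.33 and the leukocyte markers of 0.61. Endothelial markers, 3 of 7 lower in rejecting hearts, summed to 998 to 1139 in rejecting hearts and 1308 to 1442 in tolerizing hearts, against 1511 to 2267 in isografts at day 7. Of the NK cell list 3 of 3 tested genes, Klrd1, Prf1 and Gzma, were higher in rejecting hearts. In tolerizing hearts 0 of 3 were called at either day (1 at an unadjusted p under 0.05 at each). Ncr1 was at the floor in every group, and CD94, the product of Klrd1, is also found on T cells. Of 5 B cell markers 0 were called by limma in either kind of allograft, with 0 at an unadjusted p under 0.05 at day 7 and 1 at day 70. The part of these cell types in the class I values was not tested.

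Across the 14 arrays the members followed each other. The 45 pairs of tested member probe sets had Pearson correlations of log2 signal between 0.25 and 0.99, with a median of 0.87. Within groups, after removal of the group means, the range was -0.30 to 0.87 with a median of 0.33. The lowest pooled value was that of H2-Bl and H2-M3 102730_at. Among 7361 other genes, those most like H2-K1 93120_f_at were H2-K2, a further gene of the K region (r = 0.99), the class II alpha chain H2-Aa (r = 0.98) and Psmb9 (r = 0.96). H2-D1 97540_f_at was likewise nearest to H2-K2 (r = 0.99) and H2-Aa (r = 0.98), and then to the class II beta chain H2-Eb1 (r = 0.97). H2-K2 was read by an f probe set, which may share targets with these members. H2-M3 102731_g_at was nearest to H2-Q4 (r = 0.97), the macrophage gene Aif1 (r = 0.97) and the class II loading gene H2-DMa (r = 0.97), and H2-D4 101653_f_at to the interferon-induced Gbp3 (r = 0.96), to Psmb8 (r = 0.96) and to Gm9706 (r = 0.96). H2-Bl was nearest to the complement genes C1qa (r = 0.91) and C1qc (r = 0.89), which macrophages make, and to the light chain B2m (r = 0.85). Within groups these likeness values were lower, from 0.43 for H2-Bl and C1qc to 0.88 for H2-D1 97540_f_at and H2-Aa. For H2-K1 93120_f_at and Psmb9 the value within groups was 0.48. All of these values are descriptions over 14 arrays that share groups and accession runs.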

How the data were processed

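The authors deposited signal intensity on a linear scale for 12488 probe sets on 14 arrays; their software and scaling were not stated. A floor of 11 (25th percentile of the table) replaced lower intensities before log2 transformation. The 66 control probe sets were left out. Probe sets exceeding the floor on 3 or more arrays (10395) entered 1 fit of all 5 groups, made in R 4.3.3 with lmFit, contrasts.fit and trended eBayes of limma 3.58.1. P-values are two-sided and adjusted by Benjamini-Hochberg over all tested probe sets, comparison by comparison; the threshold was 0.05. Folds and log2 differences are the first group against the second on the floored scale, with 95% intervals from the fit. The number of arrays limits the precision. The procedure was tested on simulated data with less noise than these arrays and with changes only in probe sets well above the floor. That test therefore says little on power here or on dim members.

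Gene symbols of the platform annotation were updated through RefSeq gene IDs: 10833 probe sets had 1 gene, 396 several and 1193 none. All 11 members matched by gene ID. For other genes the brightest probe set stands for the gene. Every member is described. From each list at most 4 genes, those of smallest p in a comparison, were named, B2m and H2-Ea always, and the 3 genes most correlated with the brightest probe set of each member gene. Figures show whole lists. Members and lists were chosen with earlier results of these data known. Alternatives were other scalings, floors, filters and fits, blocks and left-out arrays. No scanner files, genome or probe sequences were used.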

Additional observations from a re-analysis of the deposited data

How the results depend on the processing

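The number of members called in the limma fit stayed within 1.5 times its value under every alternative for 5 of the 7 comparisons. Of these 5, only rejecting against isograft hearts at day 7 had members called, and the others stayed at 0. For tolerizing against isograft hearts at day 7 it was 7, and 2 with only the groups compared in the fit, 3 in the second accession run alone, 1 with a beta-actin ratio covariate and 4 to 7 with each array left out in turn. For tolerizing against isograft hearts at day 70 it was 9, and 4 with only the groups compared. Over all tested probe sets the calls ranged over the alternatives from 1153 to 2168 (1842 as reported) for rejecting against isograft hearts, 8 to 218 (176) for tolerizing against isograft hearts at day 7, 20 to 771 (147) for rejecting against tolerizing hearts and 37 to 405 (333) for day 70. They ranged from 0 to 34 (4) for tolerizing hearts over time, 0 to 32 (0) for isografts over time and 0 to 3 (0) for the interaction. No called member difference changed direction: of 399 alternatives to the 24 called values, 368 kept the call and 31 lost it. Differences that were not called crossed 0 in 44 of 814 alternatives, and the cause was not tested. For rejecting minus tolerizing hearts, quantile scaling gave log2 differences of -0.04 for H2-K1 93120_f_at, -0.076 for H2-D1 97540_f_at, 0.019 for H2-Bl and -0.006 for H2-M3 102730_at. Median scaling gave -0.022 and -0.036 for the H2-K1 and H2-D1 probe sets just named. The second run alone gave -0.002 for H2-K1 93120_f_at, -0.073 for 97125_f_at, 0.044 for H2-Bl and -0.07 for H2-M3 102730_at, and the beta-actin covariate gave -0.033 for H2-D1 97540_f_at and 0.073 for H2-D4 101653_f_at. With each array left out in turn that comparison ranged from -0.042 to 0.11 for H2-K1 93120_f_at, -0.002 to 0.30 for 97125_f_at, -0.054 to 0.094 for H2-D1 97540_f_at, -0.25 to 0.047 for 97541_f_at, -0.20 to 0.19 for H2-Bl and -0.18 to 0.49 for H2-M3 102730_at. In tolerizing hearts over time, H2-D4 101653_f_at gave 0.062 with median scaling, 0 with a pseudocount of 16, 0.47 with the beta-actin covariate and -0.25 to 0.24 with arrays left out, and H2-Bl -0.12 in the second run alone and -0.092 to 0.14 with arrays left out. H2-M3 102730_at gave -0.30 with the beta-actin covariate and -0.008 to 0.68 with arrays left out for tolerizing minus isograft hearts at day 7, and 0.03 and -0.67 to 0.57 for isografts over time. In the interaction, H2-K1 97700_at gave 0.15 with a floor at the 50th percentile and -0.77 to 0.088 with arrays left out, and H2-M3 102730_at -0.12 to 1.13.

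With the replicate number as a replicate block the counts of members called were 8, 7, 0, 9, 0, 0 and 0, as without it. Whether replicate numbers pair the hearts is not stated and could not be settled here. Of 26 same-numbered pairs, 11 had deviations correlated over 0.1 (range -0.18 to 0.34), and differently numbered pairs were not summarised. All arrays numbered 3 are in the first accession run, so number and run cannot be fully told apart. All 14 arrays correlated best with their own accession run, and 9 with their own number. Leaving an array out of the day 70 isografts leaves 1, assumed to vary like the other groups. The dim probe sets, near or under the floor, carry little information on change, and a family-wide probe set cannot name which class I gene gave its signal.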
